A study of Bos taurus with 15 samples.

Results

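The complement genes *C1QA*, *C1QB*, *C1QC*, *C3*, *CFB*, *CFD*, *CFI*, and *MASP1* were followed in the digestive tissues of Holstein dairy cattle at the newborn (NB) and adult (AD) stages. They were chosen by their symbols, and all 8 were found once among the 27270 genes counted (ENSBTAG00000007153, ENSBTAG00000011196, ENSBTAG00000011193, ENSBTAG00000017280, ENSBTAG00000046158, ENSBTAG00000048122, ENSBTAG00000034501, and ENSBTAG00000012467, in this order). Single-cell RNA sequencing (scRNA-seq) with 10x Genomics droplets was available for 15 libraries: 11 NB libraries (liver, salivary gland, the stomach compartments abomasum, omasum, and reticulum, and the gut from duodenum through jejunum and ileum to cecum, colon, and rectum) and 4 AD libraries (duodenum, jejunum, cecum, and colon). The AD tissues were taken from 1 lactating cow, and the NB tissues from 3 calves that the labels do not tell apart. The outer muscle layers had been removed from the gut tissues. AD duodenum and cecum were dissociated with the Lamina Propria Dissociation Kit, and AD jejunum and colon with the Multi Tissue Dissociation Kit 2. NB gut tissues were first treated with EDTA and trypsin. With 1 library for each tissue and stage no test between stages could be made, and stage, animal, and dissociation cannot be told apart.

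Complement is a set of blood and tissue proteins that mark microbes and dying cells for removal. In the classical pathway the C1q recognition protein, built from A, B, and C chains, binds its targets and switches on the proteases C1r and C1s, whereas in the lectin pathway mannose-binding lectins and ficolins act with the MASP proteases. Both routes cleave C4 and C2 and then C3, the central component. In the alternative pathway factor D cuts factor B once it is bound to C3b, which amplifies C3 cleavage, and factor I with its cofactors inactivates C3b and C4b. The liver secretes most of the C3 and factor B of plasma, macrophages are the usual source of C1q, and factor D, also called adipsin, is well known from fat cells.

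Each gene was read in barcodes assigned to a lineage by a marker: *EPCAM* (epithelial), *PTPRC* (leukocyte), *COL1A2* (stromal), or *PECAM1* (endothelial). A barcode was assigned when it held at least 1 unique molecular identifier (UMI) of its marker and none of the other 3. Of 119798 barcodes kept, 21675 were *EPCAM*, 43035 *PTPRC*, 9247 *COL1A2*, and 8594 *PECAM1* barcodes. Levels are counts of UMIs scaled to a total of 1000000 in every group of barcodes (CPM), with exact Poisson 95% intervals, and shares of barcodes carry exact binomial (Clopper-Pearson) 95% intervals. Both cover counting error alone and not the spread between animals. The intervals of CPM, and of ratios of CPM, also leave out the spread between barcodes. A difference between stages was counted when the 2 CPM values, each raised by 5 CPM, differed at least 2-fold and their intervals did not overlap. Only lineages with 50 or more barcodes at both stages of a tissue entered these comparisons, which left *PTPRC* in 4 tissues, *EPCAM* in jejunum, cecum, and colon, *PECAM1* in duodenum, jejunum, and colon, and *COL1A2* in colon. Because reads come from the ends of transcripts, CPM was not divided by gene length, and groups were compared for the same gene. Ranks among all genes and the shares of the C1q chains set genes side by side and rest on UMIs as counted.

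Total UMIs ran from 17707625 to 129458578 per library, and the median per kept barcode from 4287 to 8794.5 in NB libraries and from 3531 to 3875 in AD libraries. Barcodes with more than 1 of the markers made up 1.17% to 26.8% of a library, the most in NB cecum. Libraries shared a median of 17 barcode sequences per pair and at most 37. The 6 stromal markers summed to 7411 CPM or more in *COL1A2* barcodes of every library with 50 of them, and the 7 epithelial markers to 1248 CPM or more in *EPCAM* barcodes. Markers of other lineages were high in some groups. In *COL1A2* barcodes of the NB reticulum and omasum the epithelial markers summed to 3281 and 2735 CPM, in those of the NB salivary gland the leukocyte markers summed to 1006 CPM, and in *PECAM1* barcodes of the NB liver the 6 leukocyte markers summed to 2090 CPM and the 6 endothelial markers to 1141 CPM. *PECAM1* barcodes of the AD duodenum and AD jejunum all but lacked endothelial markers. Their 6 endothelial markers summed to 6.69 and 10.4 CPM, against 4573 and 4242 CPM in the NB libraries of these tissues, while their 6 leukocyte markers summed to 545 and 951 CPM. These AD barcodes carry the *PECAM1* marker but not the endothelial markers and are called by the marker alone.

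A leading lineage was found for 7 of the 8 genes. In the 8 libraries with 50 or more barcodes of all 4 lineages, a lineage was said to lead a gene when its mean log2(CPM + 5) exceeded that of every other lineage by at least 1. *PTPRC* barcodes led *C1QA*, *C1QB*, and *C1QC*, by 1.06, 1.13, and 1.09 over *PECAM1* barcodes. *EPCAM* barcodes led *C3* and *CFB*, by 1.81 and 2.30 over *COL1A2* barcodes, and *CFI*, by 3.49 over *PECAM1* barcodes. *COL1A2* barcodes led *CFD*, by 2.29 over *EPCAM* barcodes. *MASP1* was led by none, with a difference of 0.03 between *COL1A2* and *EPCAM* barcodes at a mean of 4.96 CPM. Among all genes, *EPCAM* barcodes led 4.56%, *PTPRC* barcodes 4.89%, *COL1A2* barcodes 7.13%, and *PECAM1* barcodes 4.04%. *CFI* was highest in *EPCAM* barcodes in 8 of 8 libraries, *C3*, *CFB*, *CFD*, and *C1QB* were highest in their leading lineage in 6 of 8, and *C1QA* and *C1QC* in 5 of 8. The AD colon was the only AD library among them, and *CFI* was the only led gene highest in its leading lineage there. *C3* was at 725.5 CPM in *COL1A2* and 27.7 CPM in *EPCAM* barcodes, and *CFB* at 77.1 and 32.8 CPM. *CFD* was at 11047 CPM in *EPCAM* and 7182 CPM in *COL1A2* barcodes, and *C1QA* at 1458 CPM in *PECAM1* and 371 CPM in *PTPRC* barcodes. The leads thus rest mainly on NB libraries.

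**Figure D1:**
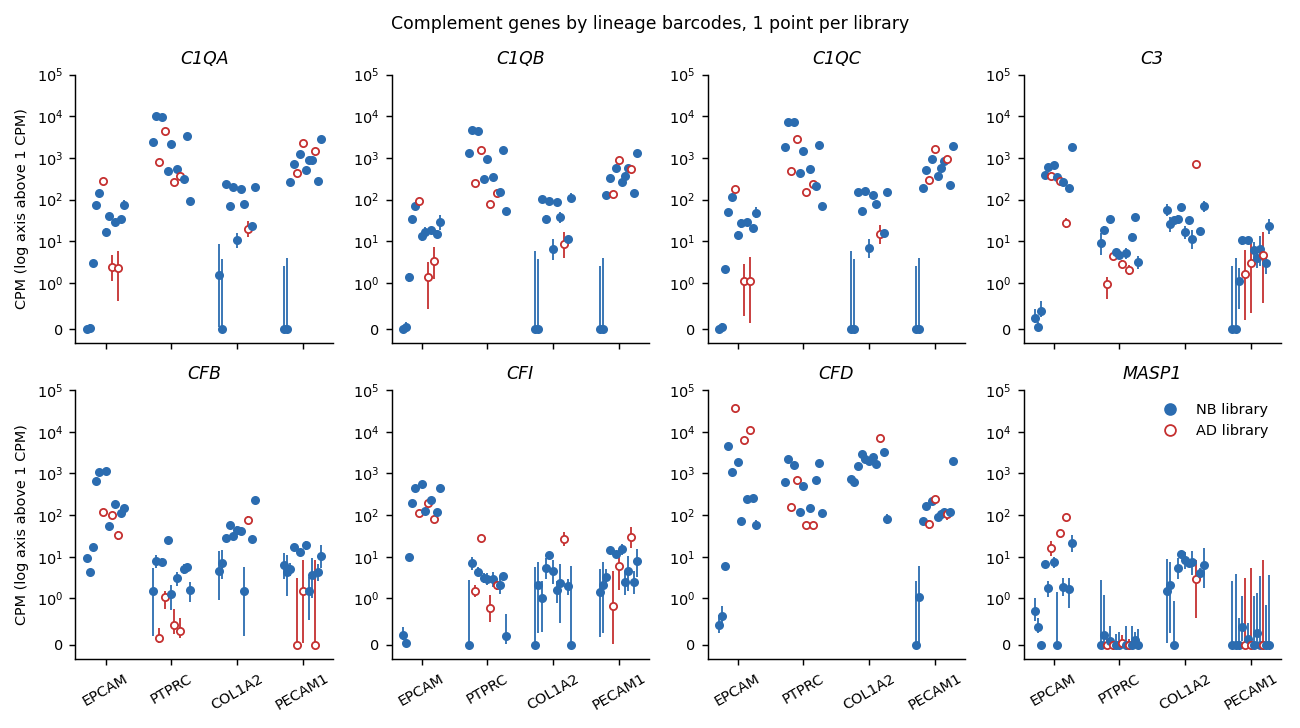
CPM (log axis above 1 CPM) of each complement gene in barcodes of the 4 lineages, with 1 point per library that had 50 or more such barcodes and exact Poisson 95% intervals. The 3 C1q chain genes sit highest in *PTPRC* barcodes (up to 9978 CPM for *C1QA*), *C3*, *CFB*, and *CFI* in *EPCAM* barcodes, and *CFD* in *COL1A2* barcodes and in *EPCAM* barcodes of the AD libraries (open circles). In the AD colon *C3* and *CFB* were highest in *COL1A2* barcodes and the C1q genes in *PECAM1* barcodes.

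C1q transcripts, which encode the chains of the recognition protein of the classical pathway, were found at the highest levels in leukocyte barcodes of the NB duodenum and NB jejunum. *C1QA* in *PTPRC* barcodes ran from 93.2 CPM in the NB salivary gland to 9978 CPM (9887 to 10070) in the NB duodenum over 9 NB libraries, with a median of 2097 CPM. The NB jejunum was close to the top at 9579 CPM, the NB liver was at 3428 CPM, the NB abomasum at 2402 CPM, and the NB ileum, colon, and rectum were at 485, 538, and 306 CPM. The 4 AD libraries were at 799 CPM in duodenum, 4498 CPM in jejunum, 265 CPM in cecum, and 371 CPM in colon. *C1QA* was thus among the most abundant transcripts of these barcodes in the NB jejunum, where it ranked 8 of all genes, and in the NB duodenum, where it ranked 11.

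Within tissues the C1q chain genes were higher in NB than in AD leukocyte barcodes nearly throughout. NB exceeded AD for *C1QA* 12.5-fold (95% interval 12.3 to 12.7) in the duodenum, 2.13-fold in the jejunum, and 7.93-fold in the cecum. In colon the ratio was 1.45 (1.40 to 1.50), which is short of 2-fold. In the same order of tissues, ending with the colon, NB exceeded AD 17.9-fold, 2.79-fold, 11.7-fold, and 2.49-fold for *C1QB* and 14.7-fold, 2.59-fold, 9.59-fold, and 2.25-fold for *C1QC*. Of the 12 pairs of a C1q gene and a tissue, 11 were higher at NB and 0 at AD, where 10.9% of all gene and tissue pairs in *PTPRC* barcodes were higher at NB and 11.3% at AD. In jejunum the NB difference was short of 2-fold for all 3 genes when each barcode weighed the same, and for *C1QA* also without the removal of doublets (log2 0.53 and 0.90). In barcodes with none of the 4 markers *C1QA* was higher at AD outside the duodenum: it was at 2992 CPM in NB and 1937 CPM in AD duodenum, 3988 and 8335 CPM in jejunum, 1029 and 1659 CPM in cecum, and 1119 and 1581 CPM in colon. *C1QB* and *C1QC* were higher at AD in jejunum and cecum there, but in colon they were higher at NB (740 and 586 CPM, 1118 and 1020 CPM). Over all kept barcodes of a library *C1QA* was at 1783 and 1035 CPM in duodenum, 4129 and 5093 CPM in jejunum, 1460 and 452 CPM in cecum, and 665 and 534 CPM in colon.

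The share of *PTPRC* barcodes with a UMI of *CSF1R* was also higher at NB in each tissue. *CSF1R*, the receptor for macrophage colony-stimulating factor, marks monocytes and macrophages. It was detected in 51.4% of NB and 5.50% of AD *PTPRC* barcodes of the duodenum. The jejunum had 69.7% at NB and 31.1% at AD, the cecum 28.2% and 1.12%, and the colon 8.23% and 1.50%. *CD3E*, of the T cell receptor complex, ran the other way, with 6.60%, 7.36%, 27.7%, and 37.1% of NB barcodes against 82.4%, 50.8%, 93.2%, and 94.8% of AD barcodes in the same order of tissues. *PTPRC* barcodes with *CSF1R* held between 79.4% and 100% of the *C1QA* UMIs of all *PTPRC* barcodes of a library. *CD3E* barcodes held 30.3% of them in AD colon, 22% in NB salivary gland, 13.1% in AD cecum, and at most 9.03% elsewhere. *CSF1R* barcodes held 92.8% in AD colon and 94.8% in AD cecum, so some barcodes there held both markers. In the NB colon *CD79A*, a gene of B and plasma cells, was detected in 52.3% of the *PTPRC* barcodes. There *CSF1R* barcodes held 95.3% of the *C1QA* UMIs. Among NB libraries the share and the level did not always go together. The NB rectum had *CSF1R* in 19.8% of *PTPRC* barcodes and *C1QA* at 306 CPM, the NB colon 8.23% and 538 CPM. Detection of 1 UMI depends on depth, and the median per kept barcode was higher at NB (6520 and 3531 in duodenum, 4761 and 3875 in colon). The shares were not thinned to equal depth, and their part in the C1q levels was not tested.

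Within *CSF1R* barcodes *C1QA* stayed within 2-fold between the stages in the small intestine and was higher at AD in the large intestine. *C1QA* was at 18801 CPM in NB and 11657 CPM in AD duodenum, at 12918 and 14233 CPM in jejunum, at 6503 and 14506 CPM in cecum, and at 4411 and 12935 CPM in colon. It was therefore higher at AD 2.23-fold (2.17 to 2.29) in cecum and 2.93-fold (2.83 to 3.04) in colon. *C1QB* was 2.32-fold higher at NB in duodenum, with a log2 difference of 1.21, and stayed within 2-fold elsewhere (log2 0.26, -0.58, and -0.77 in jejunum, cecum, and colon). *C1QC* stayed within 2-fold in all 4 tissues (log2 0.93, 0.15, -0.86, and -0.94) under this definition. It did not in duodenum without the removal of doublets (log2 1.21), and neither it nor *C1QB* did in colon when *CD68* or *CD14* could stand for *CSF1R* in barcodes without *CD3E* (-1.36 and -1.20). In this subset 4.54% of all gene and tissue pairs were higher at NB and 6.64% at AD. AD *CSF1R* barcodes spanned 11657 to 14506 CPM of *C1QA* over the 4 tissues, whereas the NB libraries of the same tissues spanned 4411 to 18801 CPM and fell in the order duodenum, jejunum, cecum, colon.

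**Figure D2:**
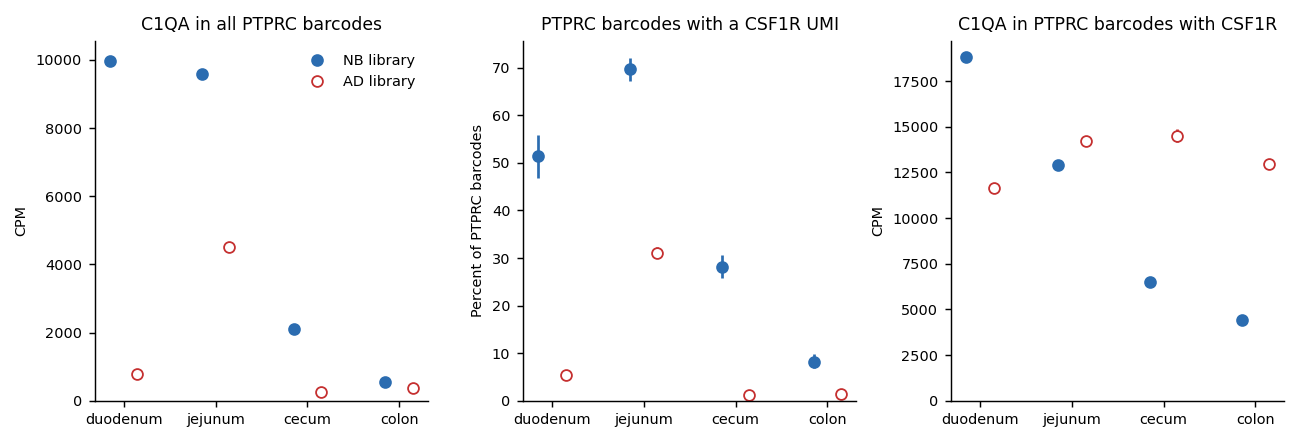
*C1QA* in all *PTPRC* barcodes (CPM, left), the percent of *PTPRC* barcodes with a *CSF1R* UMI (middle), and *C1QA* in those *CSF1R* barcodes (CPM, right) in the 4 tissues with both stages, with 95% counting intervals. NB values lie above AD values in the left and middle panels, while in the right panel AD lies above NB in jejunum, cecum, and colon.

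The proportions of the chains differed between the stages as well. Of all C1q UMIs in *CSF1R* barcodes, *C1QB* made up 20.7% to 36.7% (median 23.2%) over 11 NB libraries and 16.2% to 18.7% (median 17.1%) over 4 AD libraries, so that the stages did not overlap. The highest NB values, in reticulum and omasum, rest on 133 and 98 C1q UMIs. The share of *C1QA* ran from 25.5% to 48.9% at NB and from 49.8% to 53.9% at AD, again without overlap, and that of *C1QC* from 28.6% to 37.8% and from 29.9% to 32.0%. The AD libraries all come from the same cow, so these 4 values are not separate animals. The shares of the chains add up to the whole, so that of *C1QA* is not a separate observation. How many other sets of genes separate the same libraries was not counted. In the RefSeq annotation *C1QC* and *C1QA* are neighbors on chromosome 2, and *C1QB* is separated from *C1QC* by 1 coding gene.

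**Figure D3:**
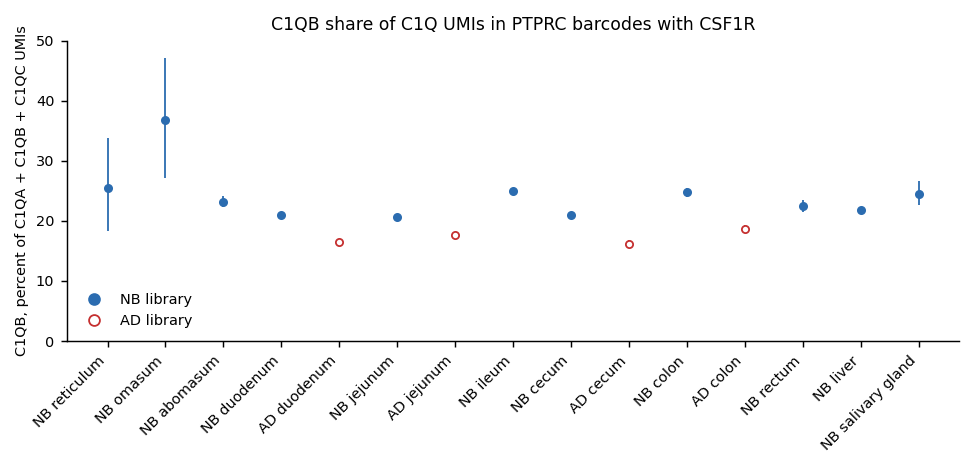
Percent of the *C1QA*, *C1QB*, and *C1QC* UMIs that came from *C1QB* in *PTPRC* barcodes with *CSF1R*, with 1 point per library and exact binomial 95% intervals. The 4 AD libraries (open circles) lie between 16.2% and 18.7%, below all 11 NB libraries.

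Similar proportions were found in barcodes of other lineages of a library, with exceptions. In the NB jejunum, *C1QB* made up 20.7% of C1q UMIs in *PTPRC* barcodes, 20.8% in *EPCAM*, 20.6% in *COL1A2*, and 20.7% in *PECAM1* barcodes. In the NB duodenum the values were 21%, 21.1%, 21.8%, and 20.9%, while in the NB colon *COL1A2* barcodes were at 19.7% and *PTPRC* barcodes at 24.8%. The NB ileum differed beyond counting error, with 25.1% (24.5 to 25.7) in *PTPRC* and 22.7% (21.4 to 24.1) in *PECAM1* barcodes. *C1QA* in *EPCAM* barcodes of the NB libraries with 50 of them ran from 0 CPM in the reticulum, where few leukocyte barcodes were found, to 147 CPM in the jejunum, and in NB duodenum and jejunum it was 4.11% and 3.56% of the level of the whole library. C1q in *EPCAM* barcodes was higher at NB in 6 of 9 pairs (*C1QA* in cecum at 39.5 and 2.43 CPM and in colon at 28.2 and 2.27 CPM), against 5.36% of all gene and tissue pairs. In jejunum each C1q gene was instead higher at AD, short of 2-fold. There *C1QA* was at 147 CPM in NB and 279 CPM in AD, *C1QB* at 69.0 and 92.9 CPM, and *C1QC* at 116 and 180 CPM. The 6 leukocyte markers in these barcodes summed to 186 and 126 CPM in NB and AD cecum and to 113 and 143 CPM in colon. Among them, *CSF1R* was at 12.5 and 0.271 CPM in cecum and at 1.81 and 0.566 CPM in colon, while *CD3E* was at 6.84 and 59.8 CPM and at 8.40 and 81.0 CPM. In colon the C1q difference was gone when barcodes with the other markers were kept (log2 0.05 for *C1QA*). These low levels were not read as expression by epithelial cells, and the part of free RNA in them was not tested.

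C1q in *PECAM1* barcodes was found mainly where endothelial genes were not detected. In the NB duodenum *C1QA* was at 41.1 CPM in the 1316 *PECAM1* barcodes that held *CDH5* or *VWF*, genes of endothelial junctions and of von Willebrand factor, and at 10847 CPM in the 95 that held neither. In the NB jejunum the values were 205 and 8832 CPM, in the NB rectum 6.35 and 2136 CPM, and in the NB liver 969 and 3455 CPM. Few *PECAM1* barcodes carried these UMIs in most libraries: the 10% with the most held 96.2% to 100% of the *C1QA* UMIs of this lineage from NB abomasum to NB rectum. They held 64.4% in NB liver and 97.5%, 58.3%, and 99.7% in AD duodenum, jejunum, and colon. This split was chosen after the values had been seen.

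*C3*, the central component on which all routes converge, was found in the epithelium of the intestine and liver. In *EPCAM* barcodes it was highest in the NB liver at 1814 CPM, and it was found at 381, 620, and 660 CPM in NB duodenum, jejunum, and ileum and at 345, 265, and 190 CPM in NB cecum, colon, and rectum. In the NB reticulum, omasum, and abomasum it did not exceed 0.403 CPM, although these libraries held 3930, 6449, and 4234 *EPCAM* barcodes. The NB intestine and the stomach compartments thus did not overlap in epithelial *C3*. How many other genes separate the same libraries was not counted. The keratin gene *KRT5*, for example, was at 6440 and 7628 CPM in *EPCAM* barcodes of reticulum and omasum and at 0 CPM in those of the NB intestine. In the NB liver 83.2% of *EPCAM* barcodes held a *C3* UMI, in the NB jejunum 62.6%, and in the NB omasum 0.062%. The 143 *EPCAM* barcodes of the NB liver also carried hepatocyte genes, with *APOA1* at 43123, *FGB* at 4213, *ALB* at 1313, and *TTR* at 961 CPM.

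Between the stages, *C3* in all *EPCAM* barcodes passed the rule in colon. It was at 620 CPM in NB and 369 CPM in AD jejunum, at 345 and 275 CPM in cecum, and at 265 and 27.7 CPM in colon. The colon difference was 9.54-fold (7.19 to 12.9) and log2 3.04. In jejunum NB was higher by more than 2-fold within *FABP2* barcodes (571 and 155 CPM, with 47 AD barcodes) and within *GUCA2B* barcodes (809 and 268 CPM). The AD cecum was unusual in its spread over barcodes, since the 10% of barcodes with the most (30 of 308) held 96.7% of its *C3* UMIs, against 36.6% to 84.5% in the other libraries of this lineage with 100 or more *C3* UMIs. In the AD cecum the 18 barcodes with *MKI67*, a marker of dividing cells, were at 1207 CPM and the 290 others at 201 CPM. NB duodenum (879 and 296 CPM) and NB jejunum (993 and 484 CPM) also had more *C3* in *MKI67* barcodes, while NB ileum (571 and 713 CPM) and NB colon (236 and 270 CPM) had not.

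Stromal *C3* had the largest ratio between the stages of all members in this lineage, which was compared in colon alone. In *COL1A2* barcodes *C3* ran from 11.6 CPM in the NB colon to 68.4 CPM in the NB salivary gland over 10 NB libraries, with a median of 32.5 CPM, and it was at 725.5 CPM (675 to 779) in the AD colon. The AD colon lay above all NB libraries, and in colon the ratio was 62.7-fold (37.8 to 113) in favor of AD, from 15 NB and 762 AD UMIs. This interval overlapped that of *CFB* (50.0-fold, 13.4 to 420), which rests on 2 NB UMIs. *C3* was detected in 64.2% of the 148 AD and 4.55% of the 198 NB barcodes, and in 37.4% and 1.02% after each barcode was thinned to 1000 UMIs. It was higher in AD colon barcodes with *PDGFRA*, a fibroblast receptor, than without it (847 and 348 CPM), and lower with the smooth muscle gene *MYH11* than without it (345 and 999.9 CPM). In *PTPRC* barcodes *C3* stayed at or under 37.5 CPM, in the NB liver.

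*CFB*, which encodes the protease of the alternative pathway C3 convertase, was highest in the epithelium of the NB small intestine. In *EPCAM* barcodes it was at 652, 1088, and 1166 CPM in NB duodenum, jejunum, and ileum, and between 55.9 and 183 CPM in NB cecum, colon, rectum, and liver. It fell to 9.32, 4.23, and 17.5 CPM in reticulum, omasum, and abomasum. The AD values were 117 CPM in jejunum, 102 CPM in cecum, and 32.8 CPM in colon. NB was higher in jejunum (9.31-fold, 8.07 to 10.8) and in colon (5.58-fold, 4.30 to 7.39), whereas in cecum AD was 1.82-fold higher, which is short of 2-fold.

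*CFB* was not even across the small intestinal epithelium. Barcodes without *FABP2*, the fatty acid binding protein of absorptive enterocytes, held more *CFB* than those with it: 3122 and 528 CPM in NB duodenum, 2486 and 632 CPM in NB jejunum, and 1773 and 127 CPM in NB ileum. In the NB colon the values were 217 and 47.6 CPM, and when only *FABP2* barcodes were compared the NB excess in colon was log2 0.95. AD jejunum went the other way (79.2 CPM without and 166 CPM with *FABP2*). In *COL1A2* barcodes *CFB* ran from 1.54 CPM in the NB colon to 236 CPM in the NB salivary gland, and the AD colon, at 77.1 CPM, was above the NB colon (50.0-fold, 13.4 to 420 from 2 NB UMIs). In NB ileum leukocytes *CFB* was at 107 CPM in *PTPRC* barcodes without *CD79A* and at 3.88 CPM in those with it.

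*CFI* encodes the protease that inactivates C3b and C4b, and it followed *C3* and *CFB* in the epithelium. In *EPCAM* barcodes it was at 563 CPM in NB ileum, 455 CPM in NB jejunum, 444 CPM in NB liver, and between 120 and 236 CPM in NB duodenum, cecum, colon, and rectum. It was at 9.70 CPM in abomasum and did not exceed 0.210 CPM in reticulum and omasum. AD jejunum was at 111 CPM, AD cecum at 195 CPM, and AD colon at 80.4 CPM. NB was higher in jejunum (4.08-fold, 3.52 to 4.76) and colon (2.94-fold, 2.48 to 3.51), and in cecum AD was 1.56-fold higher. Without the removal of doublets the jejunum difference was log2 0.69, and in *FABP2* barcodes the colon difference was log2 0.27.

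Adult phagocytes of jejunum and colon carried *CFI* at levels not seen in the NB libraries. In *PTPRC* barcodes with *CSF1R* it was at 4.41 CPM in NB and 72.9 CPM in AD jejunum, which is 16.5-fold higher at AD (12.2 to 23), and at 4.66 and 57.3 CPM in colon (12.3-fold, 4.90 to 39.7). AD duodenum and cecum were at 14.8 and 8.43 CPM, and the 11 NB libraries did not exceed 10.1 CPM, in the ileum. NB reticulum and omasum held 8 and 2 such barcodes, too few to compare with the AD levels. In all *PTPRC* barcodes the jejunum was the only tissue with *CFI* higher at AD (4.43 and 28.0 CPM). *COL1A2* barcodes of the AD colon also held more *CFI* (2.31 and 26.7 CPM, from 3 and 28 UMIs), a difference that was gone when barcodes with the other markers were kept (log2 -0.22). *PECAM1* barcodes with *CDH5* or *VWF* in the AD colon were at 71.1 CPM, from 25 barcodes, and the 109 of the NB colon at 4.01 CPM.

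*CFD*, which encodes the protease that activates factor B, was higher in AD than in NB epithelium in all 3 tissues compared. In *EPCAM* barcodes it was at 1094 CPM in NB and 36799 CPM (36505 to 37095) in AD jejunum, at 73.4 and 6264 CPM in cecum, and at 245 and 11047 CPM in colon. AD was higher 33.6-fold (33.0 to 34.3), 85.4-fold (74.1 to 98.9), and 45.1-fold (43.2 to 47.1). *CFD* ranked 1 of all genes in AD jejunum, 10 in AD colon, and 16 in AD cecum. The NB duodenum, at 4638 CPM and rank 24, was the highest NB library and lay below all 3 AD libraries, and the reticulum, omasum, and abomasum did not exceed 6.02 CPM. AD jejunum, cecum, and colon had 181, 308, and 173 *EPCAM* barcodes among 9997, 8665, and 8521 kept. The AD duodenum had 34 *EPCAM* barcodes and was not compared. In the AD jejunum, cecum, and colon the 6 stromal markers summed to 0.615, 0, and 2.83 CPM in *EPCAM* barcodes, and the 6 leukocyte markers to 173, 126, and 143 CPM. The 7 epithelial markers summed to 5092, 7992, and 9807 CPM there against 1438, 4006, and 3343 CPM at NB.

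Of the 24 pairs of a member and a tissue in *EPCAM* barcodes, 11 were higher at NB and 6 at AD, where 5.36% of all pairs were higher at NB and 13.1% at AD. Those 6 were *CFD* and *MASP1* in each of the 3 tissues, and the 5 NB pairs outside C1q were *C3* in colon and *CFB* and *CFI* in jejunum and colon. The median over all genes in these contrasts was log2 -0.33, -0.18, and -0.34 in jejunum, cecum, and colon, so the scale itself leaned to AD by less than any of these differences. In *PTPRC* barcodes the medians lay between -0.21 and -0.03, in *COL1A2* barcodes at -0.05, and in *PECAM1* barcodes at 1.08, 0.69, and 0.30.

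**Figure D4:**
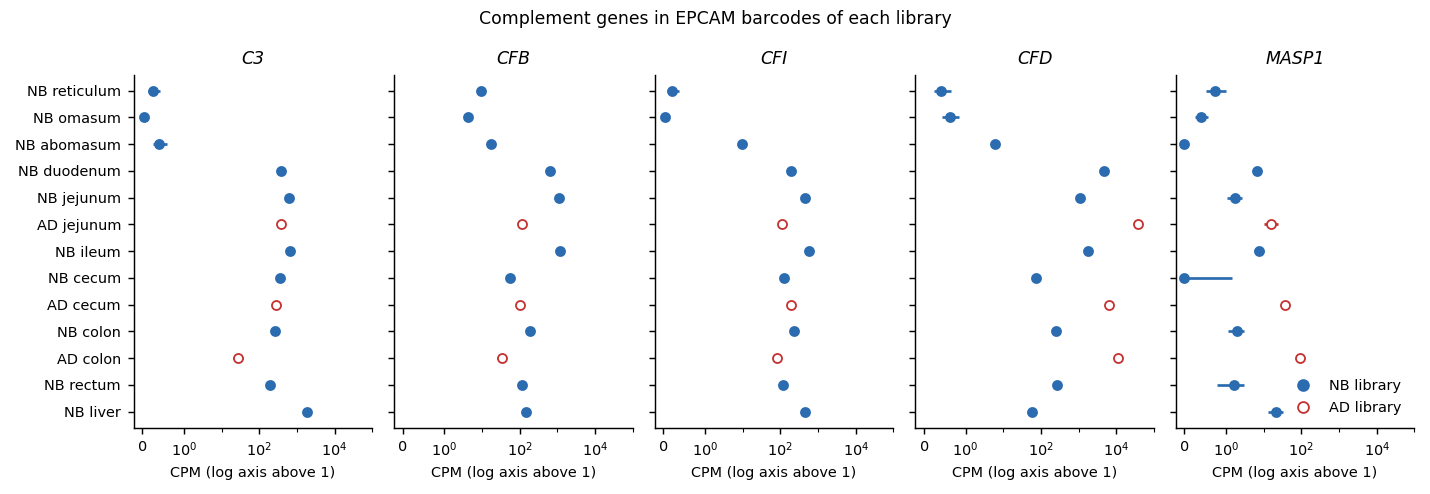
CPM (log axis above 1) of *C3*, *CFB*, *CFI*, *CFD*, and *MASP1* in *EPCAM* barcodes of each library with 50 or more of them, with exact Poisson 95% intervals. *CFD* is at 36799, 6264, and 11047 CPM in AD jejunum, cecum, and colon, above all NB libraries, while *C3*, *CFB*, and *CFI* in the AD colon lie below the NB colon.

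In NB epithelium *CFD* came from few barcodes. The 10% of *EPCAM* barcodes with the most *CFD* held 99.1% of *CFD* UMIs in NB duodenum, 97.5% in jejunum, 99.2% in ileum, 92.7% in colon, 86.6% in rectum, and 74.6% in cecum, and 53.0%, 39.5%, and 39.1% in AD jejunum, cecum, and colon. For comparison, the deepest 10% of barcodes held 18.6% to 26.7% of all UMIs in these libraries. *EPCAM* barcodes with at least 1% of their UMIs from *CFD* made up 8.98% (7.98 to 10.1) in NB duodenum (270 of 3006), 2.20% in NB jejunum (21 of 954), 3.65% in NB ileum (21 of 576), 0.848% in NB colon (7 of 825), and 0.522% in NB rectum (3 of 575). They made up 30.4% (23.8 to 37.6) in AD jejunum (55 of 181), 31.8% (26.7 to 37.3) in AD cecum (98 of 308), and 38.7% (31.4 to 46.4) in AD colon (67 of 173). None was found among 260 *EPCAM* barcodes of the NB cecum, which allows a share of up to 1.15% by 3 counts (Clopper-Pearson upper limit 1.41%), nor in reticulum, omasum, abomasum, and liver. The limit of 1% was set after the values had been seen and marks a range, not a cell type: 107 barcodes of the AD cecum and 49 of the AD colon lay within 2-fold of it, against 18 in the NB duodenum, 9 in the NB colon, 6 each in NB ileum and NB rectum, and 1 in each jejunum library. In AD cecum, NB colon, and NB rectum these outnumbered the barcodes past the limit.

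The level in those barcodes, which were chosen by *CFD* itself, is given as a description. *CFD* was at 91748 CPM in the NB duodenum, 62625 CPM in the NB jejunum, 49826 CPM in the NB ileum, and 99026 CPM in the AD jejunum. In the large intestine it was at 19705 CPM in NB colon, 15552 CPM in AD cecum, and 20877 CPM in AD colon. The remaining *EPCAM* barcodes were at 65.6 and 253 CPM in NB and AD jejunum, at 96.6 and 1396 CPM in NB and AD colon, and at 1233 CPM in AD cecum. The level outside depends on the limit, near which many barcodes of the AD cecum and AD colon lay.

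*MASP1*, which encodes a protease of the lectin pathway, was found in the same barcodes. In *EPCAM* barcodes it was at 1.76 CPM in NB and 16.0 CPM in AD jejunum, at 0 and 37.3 CPM in cecum, and at 1.91 and 90.6 CPM in colon. AD was higher 9.10-fold in jejunum and 47.4-fold in colon (29.0 to 82.0). In cecum, where NB had 0 UMIs, the lower limit of the interval of the ratio was 26.3-fold in favor of AD. The AD level there was 32.7-fold the level that 3 UMIs would give in the NB library. Without the removal of doublets the jejunum difference was log2 -0.77. In the NB duodenum the barcodes with *CFD* at 1% or more were at 133 CPM and the rest at 0.248 CPM, which placed 252 of the 261 *MASP1* UMIs in them. The other libraries with 7 or more such barcodes gave 91.6 and 0.255 CPM in NB jejunum, 166 and 1.99 CPM in NB ileum, 140 and 0.857 CPM in NB colon, 43.2 and 0 CPM in AD jejunum, 90.8 and 8.34 CPM in AD cecum, and 163 and 19.1 CPM in AD colon. The direction was the same in 7 of 7 libraries. Outside these barcodes *MASP1* reached 21.1 CPM in *EPCAM* barcodes of the NB liver and 11.6 CPM in *COL1A2* barcodes of the NB jejunum, and it did not exceed 0.391 CPM in *PTPRC* or *PECAM1* barcodes.

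**Figure D5:**
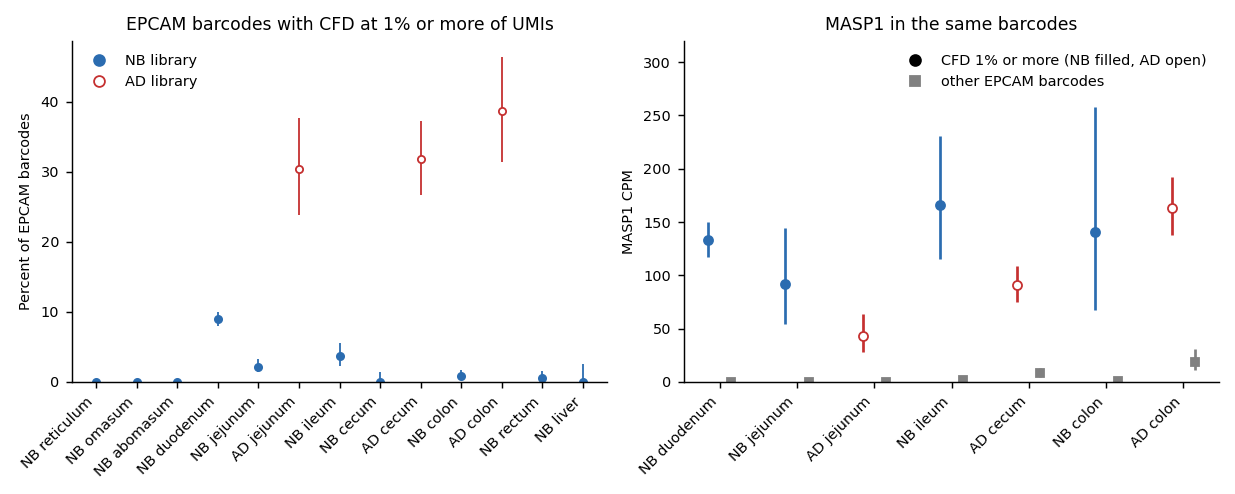
Percent of *EPCAM* barcodes with 1% or more of their UMIs from *CFD* (left, exact binomial 95% intervals) and *MASP1* CPM in those barcodes and in the other *EPCAM* barcodes (right, exact Poisson 95% intervals). The 3 AD libraries reach 30.4% to 38.7% against at most 8.98% at NB, and *MASP1* lies between 43.2 and 166 CPM inside these barcodes and at or under 19.1 CPM outside them.

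Other genes of the *CFD*-rich barcodes, listed after their values had been seen, were shared in part. *GUCA2A* and *GUCA2B*, which encode the peptides guanylin and uroguanylin, and the transcription factor gene *SPIB* were higher in them than in the other *EPCAM* barcodes in 7 of 7 libraries. *GUCA2B* was at 12743 and 76.3 CPM in NB duodenum, 1338 and 51.7 CPM in AD jejunum, and 2686 and 93.1 CPM in AD colon. *OTOP2* was higher in 7 of 7 as well (137 and 0 CPM in NB ileum, 479 and 72.9 CPM in AD colon), from 1 UMI in NB jejunum. *BEST4*, at lower levels, was higher in all but the NB colon, from 2 UMIs in NB jejunum and 1 in NB ileum, where the intervals overlapped. *CA7*, a carbonic anhydrase gene, was at 1927 and 1.49 CPM in NB ileum and at 1325 and 248 CPM in AD colon, and it was not detected in the NB duodenum. The lysozyme gene *LYSB* was at 10306 CPM in *CFD*-rich barcodes of the AD jejunum and 37.1 CPM in the rest, while in the other 6 libraries it was lower in them or, in the AD colon, at 0 in both. *FABP2* was lower in *CFD*-rich barcodes in AD jejunum (308 and 7678 CPM) and NB duodenum (381 and 7000 CPM) and higher in the other 5 libraries, for example in AD cecum (1974 and 601 CPM) and AD colon (3416 and 1160 CPM).

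*C3* and *CFB* were for the most part lower where *CFD* was rich. In the NB duodenum *CFB* was at 121 CPM in *CFD*-rich barcodes and 680 CPM in the rest, in NB ileum at 56.8 and 1205 CPM, and in AD colon at 19.4 and 46.0 CPM. *C3* was at 195 and 391 CPM in NB duodenum and at 2.29 and 52.7 CPM in AD colon. AD jejunum was different, with *C3* at 565 and 254 CPM and *CFB* at 116 and 117 CPM.

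Among barcodes that held the same second marker *CFD* was higher at AD as well. *GUCA2B* had been listed from the *CFD*-rich barcodes of these same data, and 1 UMI of it does not match cells between the stages. In jejunum 422 NB and 64 AD *EPCAM* barcodes held *GUCA2B*, where 21 and 55 were *CFD*-rich. The share of *CFD*-rich barcodes was therefore not held equal, and its part in the differences was not tested. Among *EPCAM* barcodes with *GUCA2B*, *CFD* was at 2052 CPM in NB and 53467 CPM in AD jejunum, at 29.1 and 10585 CPM in cecum, where NB had 22 such barcodes, and at 1310 and 19810 CPM in colon. Among those with *FABP2* it was at 1023 and 22227 CPM in jejunum, where AD had 47 such barcodes, and at 692 and 14967 CPM in colon. Barcodes with *TRPM5*, a channel gene of tuft cells, were low at 607, 551, and 290 CPM in AD jejunum, cecum, and colon, from 16, 9, and 10 barcodes.

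In the stroma *CFD* was abundant at both stages. *COL1A2* barcodes ran from 83.0 CPM in the NB salivary gland to 3262 CPM in the NB rectum over 10 NB libraries, with a median of 1834 CPM, and the AD colon was at 7182 CPM and rank 8 of all genes. Within colon, AD was 4.20-fold (4.00 to 4.40) above NB at 1712 CPM. *CFD* was higher in barcodes with *PDGFRA* than in those without it in the AD colon (8618 and 2721 CPM) and in 9 of 10 NB libraries, for example at 4134 and 1219 CPM in NB duodenum. The exception was the NB rectum (3089 and 3472 CPM), where barcodes with the mural cell gene *RGS5* were at 4918 CPM and those without it at 1827 CPM. Of the 8 members in *COL1A2* barcodes of the colon, 3 were higher at NB (the C1q genes) and 4 at AD (*C3*, *CFB*, *CFD*, and *CFI*), where 5.19% of all genes were higher at NB and 8.17% at AD. *MASP1* was at 7.71 and 2.86 CPM, from 10 and 3 UMIs. The epithelial and leukocyte markers in these barcodes summed to 50.9 and 64.0 CPM at NB and to 49.5 and 86.6 CPM at AD. *CSF1R* was at 5.40 CPM at NB and 0.952 CPM at AD in them.

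Leukocytes carried *CFD* as well, and in all *PTPRC* barcodes it differed between the stages in the same direction as the C1q genes. In *PTPRC* barcodes it was at 2178 CPM in NB and 158 CPM in AD duodenum, 1592 and 683 CPM in jejunum, 497 and 58.1 CPM in cecum, and 149 and 58.7 CPM in colon, so that NB was 13.8-fold, 2.33-fold, 8.55-fold, and 2.53-fold higher. In colon the difference was log2 0.79 when barcodes with the other markers were kept. In *CSF1R* barcodes the levels were 3848 and 1807 CPM, 2075 and 1781 CPM, 1198 and 2414 CPM, and 958 and 1811 CPM. *CFD* in *CD3E* barcodes did not exceed 315 CPM in any library. Among NB libraries *CFD* and *C1QA* did not always go together. In *PTPRC* barcodes they were at 716 and 306 CPM in NB rectum and at 497 and 2097 CPM in NB cecum. Taking all 8 members in *PTPRC* barcodes, 19 of 32 pairs were higher at NB and 1 at AD, *CFI* in jejunum, against 10.9% and 11.3% of all pairs. Those shares cover pairs with a mean of 5 CPM or more, which 19 of the 32 reached, and 2 of the pairs higher at NB (*CFB* in duodenum and jejunum) did not. In *CSF1R* barcodes 5 of 32 were higher at NB and 6 at AD, against 4.54% and 6.64% of all pairs. The *MASP1* pairs and *CFB* in duodenum and cecum lay below the mean of 5 CPM, and *CFB* in duodenum is among the 5.

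*C3* in *CSF1R* barcodes was low. It was at 28.7 CPM in NB and 1.18 CPM in AD duodenum, at 43.5 and 9.90 CPM in jejunum, at 9.05 and 42.1 CPM in cecum, and at 24.2 and 22.9 CPM in colon. The level over all kept barcodes moved in the same direction in duodenum (248 and 2.80 CPM) and jejunum (133 and 16.7 CPM) and was at 33.9 and 32.1 CPM in cecum, while *PTPRC* barcodes without *CSF1R* were at 7.0 and 0.964 CPM, 7.02 and 2.17 CPM, and 2.79 and 2.22 CPM in these tissues. The part of free RNA in these values was not tested. *CFB* was at 7.48 and 0.592 CPM in duodenum, from 1 AD UMI. In *PECAM1* barcodes 6 of 24 pairs were higher at NB and 1 at AD, where 32.7% of all pairs were higher at NB and 4.55% at AD. The 6 were *C1QB*, *C3* (10.4 and 1.67 CPM), *CFB* (17.4 and 0 CPM), *CFD*, and *CFI* in duodenum and *CFB* in jejunum (12.8 and 1.49 CPM). *CFI* in colon was higher at AD. The members in *PECAM1* barcodes were therefore not above the background, and the AD barcodes of duodenum and jejunum lacked endothelial markers.

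The other genes of the pathway were given by a list of 38, of which 37 were found. *COL1A2* barcodes led 7 of them: *C1R*, *C1S*, and *C4A*, the protease and substrate genes that act after C1q, *C7* of the membrane attack complex, the collectin gene *COLEC12*, and the regulators *SERPING1* (C1 inhibitor) and *CD55*. *EPCAM* barcodes led 4 (*C5*, *C6*, *C9*, and *C4BPA*), *PTPRC* barcodes 4 (*FCN1*, *C3AR1*, *C5AR1*, and *ITGB2*), *PECAM1* barcodes 2 (*C5AR2* and *CD93*), and 20 were led by none. *C1R* and *C1S* were led by stromal barcodes by log2 5.61 and 5.85, so the genes for the chains of C1q and for its proteases were led by different lineages.

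Between the stages, in *COL1A2* barcodes of the colon 9 of 37 were higher at AD and 1 at NB, against 8.17% and 5.19% of all genes of 5 CPM or more, which 14 of the 37 reached. *C1S* was at 425 CPM in NB and 2516 CPM in AD, *C1R* at 477 and 1701 CPM, *C7* at 231 and 1367 CPM, *C4A* at 84.8 and 504.6 CPM, and *SERPING1* at 943 and 3764 CPM. In *EPCAM* barcodes 5 of 37 were higher at NB and 10 at AD in at least 1 tissue. Of all genes with a mean of 5 CPM or more in a tissue, which 17 of the 37 reached here too, 10.5% were higher at NB and 24.7% at AD on the same basis. *SERPING1* was higher at AD in all 3 tissues, at 50.6 and 318 CPM in jejunum, 22.8 and 188 CPM in cecum, and 33.0 and 392 CPM in colon. *CFP*, the properdin gene, was higher at NB in cecum (142 and 66.0 CPM) and colon (314 and 43.0 CPM) and higher at AD in jejunum (23.9 and 164 CPM), and the clusterin gene *CLU* was higher at NB in cecum (340 and 149 CPM) and colon (432 and 189 CPM). *C4BPA*, a cofactor of factor I, was higher at AD in jejunum (46.5 and 207 CPM) and cecum (8.37 and 54.1 CPM), and *C2* in the same tissues (12.9 and 70.1 CPM, 0.380 and 7.30 CPM).

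In *PTPRC* barcodes 12 of 37 genes of the list were higher at NB in at least 1 tissue and 7 in at least 2, while 2 were higher at AD in at least 1. Of all genes with a mean of 5 CPM or more in a tissue, which 17 of the 37 reached, 22.1% were higher at NB in at least 1 tissue, 12% in at least 2, and 21.1% were higher at AD in at least 1. The shares of *CSF1R* and *CD3E* barcodes given above differed between the stages in the same libraries, and their part in these values was not tested. *CFP*, which encodes properdin, the stabilizer of the alternative pathway convertase, was higher at NB in all 4 tissues: 142 and 11.5 CPM in duodenum, 125 and 54.3 CPM in jejunum, 66.0 and 6.85 CPM in cecum, and 35.7 and 6.98 CPM in colon. *CLU* (clusterin, an inhibitor of the membrane attack complex) was also higher at NB in all 4. The receptor gene *C5AR1* was higher at NB in duodenum (69.4 and 6.91 CPM), cecum, and colon, and *VSIG4*, a macrophage receptor for C3 fragments, in duodenum (82.2 and 9.59 CPM) and jejunum (99.5 and 38.1 CPM). *CR2*, a receptor of B cells and follicular dendritic cells, was higher at AD in duodenum (0 and 27.6 CPM) and cecum (0.455 and 24.1 CPM) and higher at NB in colon (82.1 and 9.53 CPM). *CD79A* was detected in 1.80% of NB and 9.56% of AD *PTPRC* barcodes in duodenum, in 12.8% and 13.1% in cecum, and in 52.3% and 10.3% in colon.

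The genes whose levels were most like those of each member were sought over the 50 groups of a library and lineage with 50 or more barcodes, among 6980 genes. Each C1q gene had the other 2 and *FOLR2*, a folate receptor gene of macrophages, as its 3 nearest, with Pearson's r of log2(CPM + 5) between 0.959 and 0.998. *C3* was nearest to *CFB* (0.842), *CFI* (0.806), and *C6* (0.802), and *CFB* to *C6* (0.858), *C3*, and *GUCD1* (0.830). Among the genes nearest to *CFI* were an unnamed gene (ENSBTAG00000040409, 0.917) and *C9* (0.913). *MASP1* was nearest to *UGDH* (0.833), *CDK18* (0.789), and *OTOP2* (0.783), and *CFD* had the least similar neighbors, *NDRG3* (0.745), *MYL12B* (0.723), and *MLXIP* (0.712). Groups of a library share its depth and its free RNA, and these values are descriptions without a test.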

How the data were processed

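The authors demultiplexed the reads and counted UMIs on the ARS-UCD1.2 genome with Cell Ranger 3.1.0, and the deposited values are raw counts of UMIs per gene and barcode, 1 matrix per library. Barcodes with 500 to 4000 genes, fewer than 50000 UMIs, and under 40% mitochondrial UMIs were kept, as in the study's methods. To remove doublets, barcodes were ranked by a Scrublet-style score (2 simulations per barcode, 2000 variable genes, 30 principal components), and the top 0.8% per 1000 barcodes were dropped, which left 119798 of 172405. DoubletFinder and the study's cell annotation were not used. UMIs were summed over the barcodes of a lineage and library and divided by their total (CPM). All 8 members were read in every lineage. Genes of the pathway list are named when they passed the 2-fold rule in at least 2 tissues or were led by a lineage, with up to 3 genes most like each member, and others were chosen after their values were seen. A gene among those most like *CFI* is not reported here. The share of genes called covers gene and tissue pairs of mean CPM 5 or more. Members, lists, and markers were chosen with earlier results of these data known. The call rule was tested on simulated data. These were Poisson counts from a shared profile without spread between barcodes, animals, or libraries, so calls that come from such spread were not covered. Neighboring genes were taken from RefSeq by name. Sequences were not used here. Python 3.11.15, NumPy 2.4.6, SciPy 1.17.1, pandas 2.3.3, scikit-learn 1.9.0, and matplotlib 3.10.9 were used.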

Additional observations from a re-analysis of the deposited data

Results flagged for a closer look

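Barcodes that held none of the 4 lineage markers carried at least 2-fold more C1q than any lineage with 50 or more barcodes in 3 libraries. In the AD duodenum *C1QA*, *C1QB*, and *C1QC* were at 1937, 611, and 1234 CPM in these barcodes, and *CFD* was at 332 CPM. In the AD cecum the C1q genes were at 1659, 503, and 960.2 CPM, and in the NB salivary gland at 866, 469, and 656 CPM. In each case the lower end of the interval also lay above the upper ends in those lineages. Smaller excesses were found as well, as in the AD jejunum, where *C1QA* was at 8335 CPM in these barcodes and 4498 CPM in *PTPRC* barcodes.

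3 members differed between NB and AD in opposite directions in different tissues (log2 of the NB level over the AD level, by the same contrast). In *PECAM1* barcodes *CFI* was at 1.72 in duodenum and -1.87 in colon, from 109 NB and 1 AD UMIs and from 5 and 13 UMIs. The AD duodenum barcodes lacked endothelial markers, and the median of all genes there was 1.08. In *PTPRC* barcodes with *CSF1R*, *C3* was at 2.44 in duodenum, 1.70 in jejunum, and -1.75 in cecum, and *CFD* was at 1.09 in duodenum and -1.01 in cecum. The *CFD* differences fell short of 2-fold when *CD68* or *CD14* could stand for *CSF1R* in barcodes without *CD3E* (3460 and 1825 CPM in duodenum, 1038 and 1963 CPM in cecum), and in cecum also without the removal of doublets (1166 and 2059 CPM). *C3* over all kept barcodes was also higher at NB in duodenum (248 and 2.80 CPM) and jejunum (133 and 16.7 CPM). The differences between tissues were not tested, since each tissue and stage had 1 library.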

How the results depend on the processing

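The numbers of member and tissue pairs past the rule were recounted under other settings. With 4-fold in place of 2-fold, 7 *EPCAM*, 9 *PTPRC*, 1 *COL1A2*, and 1 *PECAM1* pairs were higher at NB, and 0 *PTPRC* and 0 *PECAM1* pairs at AD. Without the removal of doublets 10 *EPCAM* pairs (the AD duodenum then entered) and 2 *PECAM1* pairs were higher at AD. With each barcode weighing the same, 10 *EPCAM* and 4 *PECAM1* pairs were higher at AD. *PECAM1* pairs were 2 at AD without an upper limit on genes, 2 at NB and 4 at AD with TMM scaling, and 0 either way with at least 2 UMIs of the marker, where no tissue kept 50 barcodes at both stages. With all genes in the background, 3.49% and 7.69% of *EPCAM* pairs were higher at NB and AD.

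Of the 49 called differences with a mean of 5 CPM or more (2 below it were not recomputed), all kept their direction under 6 of 9 settings, and 42 of 42, 48 of 49, and 47 of 49 with at least 2 UMIs of the marker, with barcodes of several markers kept, and with each barcode weighing the same. Differences that also stayed at 2-fold numbered 41 of 42, 43, and 44 in these, 46 without the removal of doublets, 46 with TMM scaling, 48 without an upper limit on genes, and 49 in the other 3. The 3 that turned were *C1QC* in *EPCAM* barcodes of the colon (-0.013 with several markers kept) and *C1QB* (-1.04) and *CFD* (-0.56) in *PECAM1* barcodes of the duodenum with each barcode weighing the same. Their cause was not tested. Comparisons within *FABP2*, *GUCA2B*, and *CDH5* or *VWF* barcodes were added after the data had been seen and kept 12 of 12, 17 of 17, and 1 of 1 directions, with 9, 14, and 1 at 2-fold.

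Within *CSF1R* barcodes the log2 differences moved beyond counting error. With *CSF1R*, *CD68*, or *CD14* and no *CD3E* they were 0.57, -0.18, and -1.95 for *C1QA* in duodenum, jejunum, and colon, 1.08, 0.21, and -1.20 for *C1QB*, and 0.81, 0.10, and -1.36 for *C1QC*. Without the removal of doublets they were, in duodenum, jejunum, cecum, and colon, 0.97, -0.10, -1.04, and -1.45 for *C1QA*, 1.48, 0.29, -0.46, and -0.66 for *C1QB*, and 1.21, 0.19, -0.76, and -0.85 for *C1QC*. No paired analysis was possible because each tissue and stage had 1 library, and no library could be left out for the same reason. Many values under 5 CPM rest on few UMIs, though not all, as *CFB* in *EPCAM* barcodes of the NB omasum was at 4.23 CPM from 292 UMIs. Low counts limit *MASP1* and *CFI* in most groups outside the epithelium.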
